A study of Solanum lycopersicum with 36 samples.

Results

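Anthocyanin, the purple pigment of stressed tomato leaves, is made when a small set of transcription regulators switches on the enzymes of the flavonoid pathway. The 9 genes described here are regulators of that kind. They were taken by identifier from a table of 29285 genes measured in tomato leaves, and each of the 9 identifiers was found. The R2R3-MYB activators are AN2 (Solyc10g086250), ANT1 (Solyc10g086260), ANT1-like (Solyc10g086270) and AN2-like (Solyc10g086290). MYB12 (Solyc01g079620) is an R2R3-MYB of the flavonol branch, and MYB-ATV (Solyc07g052490) is a small R3-MYB repressor. AN1 (Solyc09g065100) and JAF13 (Solyc08g081140) are bHLH proteins, and AN11 (Solyc03g097340) is a WD-repeat protein, so the set holds 1 gene that is neither MYB nor bHLH. The names are those given with the identifiers, and no table used here pairs them. The 4 activators carry neighbouring numbers on chromosome 10 in their identifiers, and the identifiers of AN1, JAF13, MYB12, MYB-ATV and AN11 place them on chromosomes 9, 8, 1, 7 and 3.

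Leaf RNA came from month-old plants of Solanum lycopersicum cultivar Micro-Tom, a dwarf tomato, in a study of the sterol glycosyltransferases SGT1 and SGT2, enzymes that attach sugar to sterols. The line SGT2ox was sampled beside its own wild type, and the line SGT1ami beside a different set of wild type plants, each at 0, 3 and 24 h with 3 libraries, which gives 12 groups and 36 libraries. The suffixes are read here as overexpression and as artificial microRNA. No source used here gives the promoter of the transgenes, the number of independent lines or any pooling of plants. The protocol moved some plants to 4 °C, but each library is labelled with a time and no temperature, so that a change from 0 h is called a change with time.

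In petunia, maize, Arabidopsis and tomato, an R2R3-MYB, a bHLH and a WD-repeat protein bind together as the MBW complex, which activates the late genes of anthocyanin synthesis. In petunia the bHLH JAF13 acts upstream of the bHLH AN1, and R3-MYB proteins compete with the activators for the bHLH partner. MYB12 works without a bHLH and acts on the early genes that anthocyanin shares with the flavonols. In tomato, light and low temperature are known inducers of the pigment in vegetative tissue.

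The libraries held 36602841 to 43742623 reads, recovered from the deposited normalised reads, which are gene counts divided by 1 size factor per library. A single read was worth 0.763 to 1.28 normalised reads. The labels call the triplicates independent, but replicates lay close together and p-values measure the spread between these libraries. Identifiers noted from memory for the targeted genes checked the labels. The one noted for SGT2 was 26.8-fold to 33.3-fold higher in SGT2ox than in its wild type at the 3 times. At 0 h the one noted for SGT1 had a mean of 2435 in SGT1ami and of 7845 in its wild type, and at 3 h a mean of 2373 and of 5948. At 24 h it had 6173 normalised reads in the libraries labelled SGT1ami against 6685 in the wild type, a gap far smaller than at the earlier times. Those 3 libraries are therefore called here the libraries labelled SGT1ami at 24 h.

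Of the 9 regulators, 6 passed the filter of at least 10 normalised reads in at least 3 libraries of an experiment, and ANT1, AN2-like and MYB-ATV did not. Differences were tested with limma on log2(value + 1) over all genes that passed, and were called at a Benjamini-Hochberg adjusted p below 0.05. All log2 fold changes are on that scale, which understates the change of low genes. In leaf tissue, fewer cells of a type and less RNA per cell cannot be told apart. Scaling to library totals in place of the size factors moved the median of all genes by -0.45 (log2, 3 h) and -0.28 (24 h) in the SGT2ox wild type, and by -0.24 and -0.58 in the SGT1ami wild type, so changes with time are given relative to the typical gene. Every later statement that a call is lost with library totals refers to this scaling.

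AN2 was the regulator with the widest range of levels, and it rose at 3 h in both lines and both wild types. In SGT2ox, AN2 had 29.5, 13.5 and 39.1 normalised reads in the 3 libraries at 0 h, 340, 353 and 389 at 3 h, and 388, 397 and 371 at 24 h. Its wild type had 60.7, 64.7 and 74.0 at 0 h, 402, 372 and 347 at 3 h, and 705, 650 and 629 at 24 h. At 0 h and at 24 h every SGT2ox library lay below every wild type library, while at 3 h the groups overlapped. In SGT1ami, AN2 had 255, 248 and 254 normalised reads at 0 h, 1419, 1466 and 1477 at 3 h, and 368, 308 and 311 in the libraries labelled SGT1ami at 24 h. The wild type libraries beside it had 299, 283 and 283 at 0 h, 1233, 1186 and 1168 at 3 h, and 294, 247 and 267 at 24 h. In this experiment the level peaked at 3 h, and all SGT1ami libraries of 3 h and those labelled so at 24 h lay above the wild type, while those of 0 h lay below it.

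The rise of AN2 from 0 h to 3 h was 3.79 ± 0.21 in SGT2ox and 2.48 ± 0.21 in its wild type (log2 fold change ± SE, limma, adjusted p = 6.4e-15 and 4.8e-11). It was 2.52 ± 0.08 in SGT1ami and 2.05 ± 0.08 in the SGT1ami wild type (limma, adjusted p = 2.1e-21 and 2.4e-19). These rises are 13.8-fold, 5.56-fold, 5.74-fold and 4.14-fold in the same order. By 24 h the courses had parted. AN2 stood 3.89 above its 0 h level in SGT2ox and 3.30 above it in the SGT2ox wild type (log2, limma, adjusted p = 1.8e-15 and 7.3e-14), and the wild type went on rising after 3 h by 0.82 ± 0.21 (limma, adjusted p = 8.5e-04). In the SGT1ami wild type, AN2 fell by 2.15 on the log2 scale between 3 h and 24 h (limma, adjusted p = 2.3e-20) and its difference from 0 h was -0.10 ± 0.08 (limma, adjusted p = 0.22), which was -0.17 and called with TMM scaling (adjusted p = 0.039) and -0.72 and called with library totals (adjusted p = 1.1e-09). The libraries labelled SGT1ami at 24 h lay 0.38 ± 0.08 above SGT1ami at 0 h (limma, adjusted p = 5.9e-05), a direction that turned to -0.16 with library totals (adjusted p = 0.057).

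**Figure D1:**
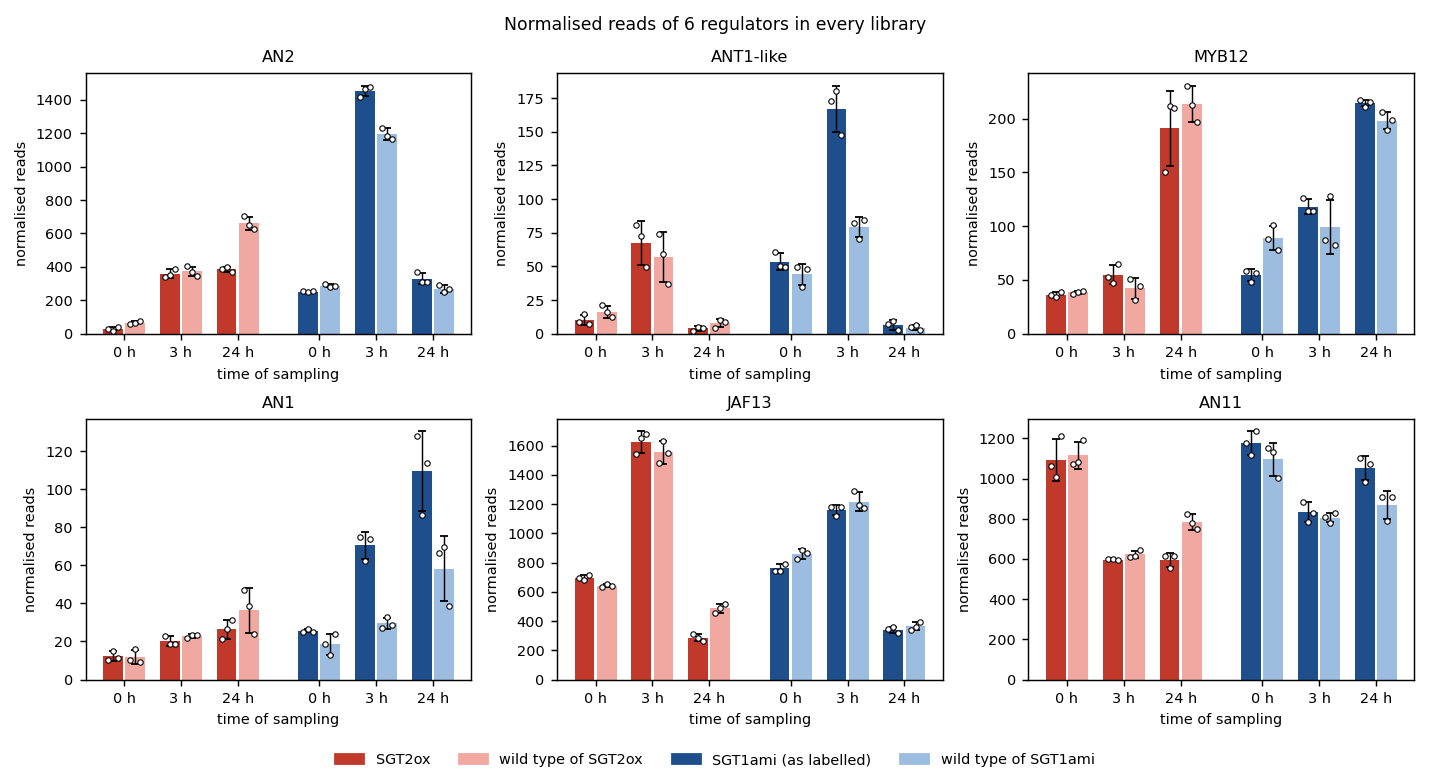
Normalised reads (y axes, each from 0) of the 6 regulators that passed the filter, by time of sampling. Bars are means and whiskers SD of 3 libraries, points are libraries, and within each time the line stands left of its wild type. AN2 reached 1454 in SGT1ami and 1196 in its wild type at 3 h, while it was highest in the SGT2ox wild type at 24 h with a mean of 662.

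The plot of normalised reads by library shows the order of the AN2 groups. The means ran through SGT1ami at 3 h (1454), its wild type at 3 h (1196) and the SGT2ox wild type at 24 h (662), with no overlap between these neighbours. The groups from SGT2ox at 24 h (385) to SGT1ami at 0 h (252) lay close. SGT2ox at 24 h overlapped its wild type at 3 h (374), which overlapped SGT2ox at 3 h (360). That group overlapped the 24 h libraries labelled SGT1ami (329), which lay apart from the SGT1ami wild type at 0 h (288). The SGT2ox wild type at 0 h (66.5) and SGT2ox at 0 h (27.4) were the lowest and did not overlap each other. Of the 11 neighbours in the order, 5 overlapped and 6 did not.

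ANT1-like, the second measurable activator of the chromosome 10 group, showed a short peak at 3 h. In SGT2ox it had 8.67, 14.3 and 6.95 normalised reads at 0 h, 80.9, 72.7 and 49.3 at 3 h, and 2.13, 5.31 and 4.34 at 24 h. In its wild type there were 21.0, 16.2 and 12.2 at 0 h, 73.7, 59.5 and 37.0 at 3 h, and 4.29, 10.4 and 8.66 at 24 h. Line and wild type overlapped at every time. In SGT1ami it had 60.7, 50.6 and 49.6 normalised reads at 0 h, 173, 180 and 147 at 3 h, and 7.24, 9.77 and 2.42 in the libraries labelled SGT1ami at 24 h. The SGT1ami wild type had 49.6, 35.0 and 47.9 at 0 h, 82.0, 70.6 and 84.8 at 3 h, and 5.03, 6.24 and 2.57 at 24 h. Every SGT1ami library of 0 h and 3 h lay above every wild type library of its time, barely so at 0 h, and the 24 h groups of both experiments were the lowest.

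The rise of ANT1-like at 3 h was 6.36-fold in SGT2ox, 3.25-fold in its wild type and 3.07-fold in SGT1ami, with log2 fold changes of 2.67 ± 0.40, 1.70 ± 0.40 and 1.62 ± 0.33 (limma, adjusted p = 1.6e-06, 5.3e-04 and 1.1e-04). In the SGT1ami wild type it was 0.84 ± 0.33 (limma, adjusted p = 0.029), a call lost with no filter (adjusted p = 0.055), with library totals (0.091), without wild type replicate 2 of 0 h (0.12) and without replicate 1 or 3 of 3 h (0.07 and 0.079). Between 0 h and 24 h ANT1-like fell by 3.02 on the log2 scale in the libraries labelled SGT1ami and by 3.05 in their wild type (limma, adjusted p = 2.8e-09 and 2.2e-09). The fall over the same time was smaller in the other experiment, at -1.16 ± 0.40 in SGT2ox and -1.03 ± 0.40 in its wild type (limma, adjusted p = 0.0099 and 0.021). The SGT2ox call was lost without replicate 2 of 0 h (adjusted p = 0.066) or replicate 1 of 24 h (0.065), and the fall was -0.73 with a pseudocount of 5. The wild type call was lost without replicate 1 of 0 h (0.09) or replicate 1 of 24 h (0.13). The 24 h libraries held 2 to 10 reads each, close to the limit of detection. The sizes of the 24 h falls thus rest on few reads and on 0 h levels that differed between the experiments.

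ANT1 and AN2-like, the other activators of the chromosome 10 group, were close to the limit of detection. ANT1 had 10 reads in the 36 libraries together, was at 0 in 27 of them, and had at most 2 reads in a library. A count of 0 allows up to 3 fragments, for counting error only. Since most fragments were counted by both of their mates, this is up to 6 reads, or 4.58 to 7.71 normalised reads depending on the library. AN2-like had 40 reads in all and was at 0 in 22 libraries. Its reads lay mostly at 24 h, with 2, 0 and 2 reads in SGT2ox against 6, 2 and 4 in its wild type, and with 2, 0 and 0 reads in the libraries labelled SGT1ami against 4, 6 and 5 in their wild type. The groups overlapped in the SGT2ox experiment and did not in the other. With no filter on low values AN2-like was not called in SGT2ox at 24 h (limma, adjusted p = 0.086) and was called lower in the libraries of that time labelled SGT1ami (limma, adjusted p = 0.0024). No fold is given, since no library of these groups had more than 6 reads. Reads shared between these neighbouring genes cannot be separated from their own, since no source used here says how multiply matching reads were counted.

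MYB-ATV, the R3-MYB repressor, was at 0 in 12 libraries and had 116 reads in all. Its reads were highest at 3 h in each genotype, with 4, 7 and 4 reads in SGT2ox against 12, 8 and 2 in its wild type, and 10, 5 and 14 in SGT1ami against 2, 10 and 6 in its wild type. At 0 h the highest count was 3 reads, and SGT2ox had none in its 3 libraries. At 24 h SGT2ox had 1, 0 and 2 reads against 0, 6 and 6 in its wild type, and the other groups had at most 2. With no filter on low values, MYB-ATV was called higher at 3 h than at 0 h in both lines and both wild types (limma, adjusted p = 0.0017 to 0.037). Line and wild type overlapped at 3 h in both experiments.

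**Figure D2:**
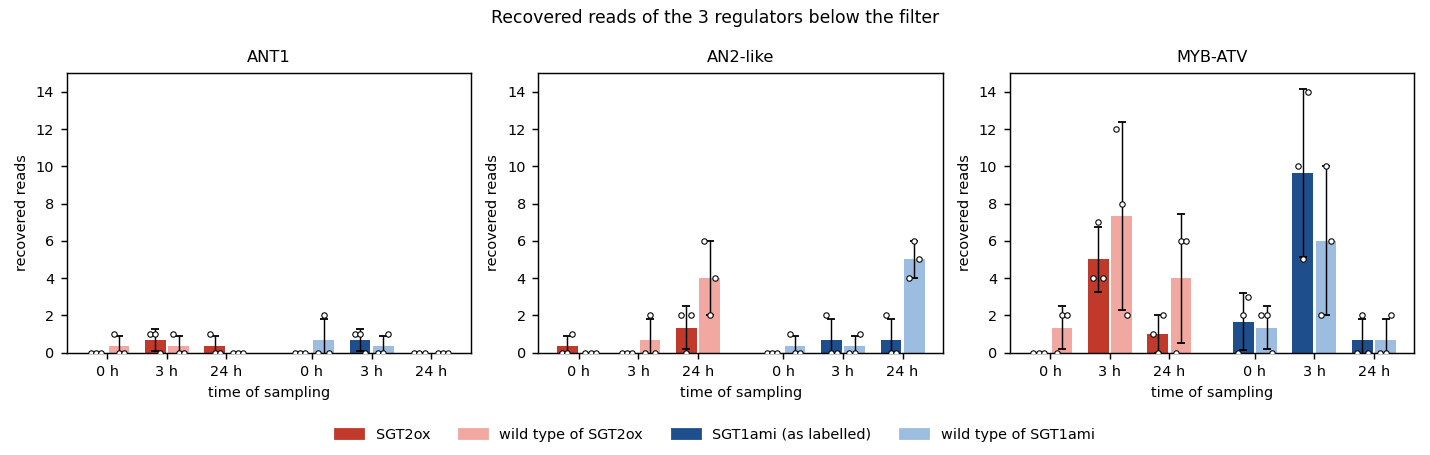
Recovered whole reads (y axes, 0 to 15) of the 3 regulators below the filter, by time of sampling. Bars are means and whiskers SD of 3 libraries, points are libraries, and the line stands left of its wild type. MYB-ATV reads gather at 3 h and reach 14 in SGT1ami, AN2-like reads gather at 24 h and reach 6, and ANT1 has at most 2 reads in a library.

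MYB12, the flavonol regulator, was highest at 24 h in both lines and both wild types. In SGT2ox it had 36.4, 33.7 and 39.1 normalised reads at 0 h, 53.1, 46.9 and 64.6 at 3 h, and 151, 211 and 210 at 24 h. Its wild type had 37.2, 38.8 and 39.7 at 0 h, 50.8, 31.5 and 44.4 at 3 h, and 231, 213 and 197 at 24 h. Line and wild type overlapped at each time. In SGT1ami, MYB12 had 58.3, 48.2 and 56.9 normalised reads at 0 h, 126, 114 and 114 at 3 h, and 217, 211 and 215 in the libraries labelled SGT1ami at 24 h. Its wild type had 88.1, 101 and 78.3 at 0 h, 86.9, 128 and 82.8 at 3 h, and 206, 190 and 199 at 24 h. Every SGT1ami library of 0 h lay below every wild type library of 0 h, and at 24 h the libraries labelled SGT1ami lay above those of the wild type.

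MYB12 rose from 0 h to 24 h by 2.34 ± 0.20 in SGT2ox, 2.44 ± 0.20 in its wild type, 1.96 ± 0.16 in the libraries labelled SGT1ami and 1.15 ± 0.16 in the SGT1ami wild type (log2 fold change ± SE, limma, adjusted p = 5.1e-11, 2.6e-11, 5.1e-12 and 1.9e-07). The last of these was 0.53 with library totals (adjusted p = 0.0032). At 3 h it had risen by 1.11 ± 0.16 in SGT1ami (limma, adjusted p = 7.1e-07) and by 0.57 ± 0.20 in SGT2ox (limma, adjusted p = 0.017). The SGT2ox call was lost with library totals (0.23, adjusted p = 0.3), without replicate 2 of 0 h (0.053) and without replicate 3 of 3 h (0.087). In the wild types the change at 3 h was 0.10 ± 0.20 in that of SGT2ox and 0.13 ± 0.16 in that of SGT1ami (limma, adjusted p = 0.68 and 0.49), and both turned negative with library totals (-0.37 and -0.09). The sign also turned without replicate 1 of the SGT2ox wild type at 3 h (-0.04) and without replicate 2 of the SGT1ami wild type at 3 h (-0.06).

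AN1, the bHLH that petunia needs for pigment in petals, was higher at each later time than at 0 h in every genotype, and 3 of 4 rises at 3 h passed the test. In SGT2ox it had 10.4, 15.2 and 11.3 normalised reads at 0 h, 23.1, 18.7 and 18.8 at 3 h, and 21.3, 26.6 and 31.4 at 24 h. In its wild type there were 10.5, 16.2 and 9.15 at 0 h, 21.8, 23.3 and 23.5 at 3 h, and 47.2, 38.6 and 23.8 at 24 h. Line and wild type overlapped at every time. In SGT1ami, AN1 had 25.2, 26.5 and 25.2 normalised reads at 0 h, 75.0, 62.6 and 74.1 at 3 h, and 128, 86.7 and 114 in the libraries labelled SGT1ami at 24 h. The wild type libraries beside it had 18.9, 12.7 and 23.9 at 0 h, 27.0, 32.9 and 28.9 at 3 h, and 66.6, 69.9 and 38.5 at 24 h. All libraries of SGT1ami lay above those of its wild type at all 3 times without overlap.

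The rise of AN1 from 0 h to 24 h was 1.04 ± 0.32 in SGT2ox and 1.52 ± 0.32 in its wild type (log2 fold change ± SE, limma, adjusted p = 0.0048 and 1.4e-04). It was 2.03 ± 0.26 in the libraries labelled SGT1ami and 1.60 ± 0.26 in the SGT1ami wild type (limma, adjusted p = 4.2e-08 and 2.4e-06), and the wild type value was 0.99 with library totals. At 3 h AN1 had risen by 1.42 ± 0.26 in SGT1ami (limma, adjusted p = 2.4e-05). It had also risen by 0.92 ± 0.32 in the SGT2ox wild type (limma, adjusted p = 0.015), a call lost with library totals (0.47, adjusted p = 0.2) and without replicate 3 of 0 h (0.07). In the SGT1ami wild type the rise was 0.69 ± 0.26 (limma, adjusted p = 0.022), and the call was lost with library totals (0.47, adjusted p = 0.11), with only the groups compared in the fit (0.05), without replicate 2 of 0 h (0.45, adjusted p = 0.16) and without replicate 2 of 3 h (0.074). In SGT2ox the change was 0.68 ± 0.32 (limma, adjusted p = 0.067), and it was called with only the groups compared in the fit (0.034), with all 36 libraries in one fit (0.033) and without replicate 2 of 0 h (0.049). AN1 had 12 to 106 reads per library, against 246 to 1430 for JAF13 and 504 to 1566 for AN11, and its SE was wider than theirs.

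JAF13, the other bHLH, rose at 3 h and was below its 0 h level at 24 h in every genotype. In SGT2ox it had 694, 684 and 715 normalised reads at 0 h, 1541, 1651 and 1679 at 3 h, and 309, 285 and 267 at 24 h. Its wild type had 631, 654 and 643 at 0 h, 1478, 1632 and 1551 at 3 h, and 456, 491 and 516 at 24 h. SGT2ox lay above its wild type at 0 h and below it at 24 h without overlap. In SGT1ami, JAF13 had 743, 744 and 791 normalised reads at 0 h, 1180, 1117 and 1179 at 3 h, and 343, 358 and 317 in the libraries labelled SGT1ami at 24 h. The SGT1ami wild type had 823, 888 and 868 at 0 h, 1289, 1191 and 1172 at 3 h, and 342, 361 and 393 at 24 h. SGT1ami lay below its wild type at 0 h without overlap, and the groups overlapped at 3 h and 24 h.

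The rise of JAF13 at 3 h was 1.22 ± 0.07 in SGT2ox and 1.27 ± 0.07 in its wild type (log2 fold change ± SE, limma, adjusted p = 4.7e-15 and 1.7e-15), and 0.61 ± 0.06 in SGT1ami and 0.50 ± 0.06 in the SGT1ami wild type (limma, adjusted p = 2.6e-09 and 9.1e-08). With library totals the wild type values were 0.79 and 0.28, both still called. The change from 0 h to 24 h was -1.28 ± 0.07 in SGT2ox, -0.40 ± 0.07 in its wild type, -1.16 ± 0.06 in the libraries labelled SGT1ami and -1.23 ± 0.06 in the SGT1ami wild type (limma, adjusted p = 7.3e-16, 5.0e-06, 8.4e-16 and 2.0e-16). With library totals the changes in the wild types were -0.66 and -1.86, in the direction of the fall.

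AN11, the WD-repeat partner, was highest at 0 h in every genotype and varied least, with a ratio of 1.98 between its highest and lowest group mean. In SGT2ox it had 1064, 1006 and 1210 normalised reads at 0 h, 597, 598 and 593 at 3 h, and 613, 553 and 614 at 24 h. Its wild type had 1071, 1080 and 1194 at 0 h, 609, 616 and 644 at 3 h, and 824, 778 and 747 at 24 h. At 3 h and at 24 h SGT2ox lay below its wild type without overlap. In SGT1ami, AN11 had 1176, 1117 and 1234 normalised reads at 0 h, 885, 785 and 830 at 3 h, and 1102, 983 and 1071 in the libraries labelled SGT1ami at 24 h. In its wild type there were 1150, 1134 and 1002 at 0 h, 808, 781 and 827 at 3 h, and 907, 790 and 909 at 24 h. At that time the libraries labelled SGT1ami lay above their wild type without overlap.

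AN11 fell from 0 h to 3 h by 0.87 in SGT2ox, 0.84 in its wild type, 0.50 in SGT1ami and 0.44 in the SGT1ami wild type on the log2 scale (limma, adjusted p = 1.6e-11, 3.2e-11, 1.5e-07 and 1.1e-06). At 24 h it was still lower than at 0 h, with changes of -0.88 ± 0.07 in SGT2ox, -0.51 ± 0.07 in its wild type and -0.33 ± 0.07 in the SGT1ami wild type (limma, adjusted p = 7.0e-12, 2.3e-07 and 3.6e-05). With library totals these falls were larger in the wild types, at -0.78 and -0.96. In the libraries labelled SGT1ami at 24 h the change was -0.16 ± 0.07 (limma, adjusted p = 0.025), a call lost without SGT1ami replicate 1 or 3 of 0 h (adjusted p = 0.051 and 0.12) or replicate 2 of 24 h (0.14), and -0.70 with library totals.

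The other regulators had more overlap between neighbouring groups than AN2 and JAF13 had. Of the 11 neighbours in the order of group means, 8 overlapped for ANT1-like, 9 for AN1, 9 for MYB12, 8 for AN11 and 3 for JAF13. The order of JAF13 began with both 3 h groups of the SGT2ox experiment (1624 in SGT2ox and 1554 in its wild type), went on with both 3 h groups of the other, and ended with the 24 h groups, of which SGT2ox (287) was the lowest. The order of MYB12 began with the 24 h groups, each of which overlapped the next from 215 to 191, and ended with the SGT2ox wild type (38.6) and SGT2ox (36.4) at 0 h, which overlapped too. AN1 was highest in the libraries labelled SGT1ami at 24 h (109), with a gap to SGT1ami at 3 h (70.6), and lowest at 0 h in SGT2ox (12.3) and its wild type (11.9), which overlapped.

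**Figure D3:**
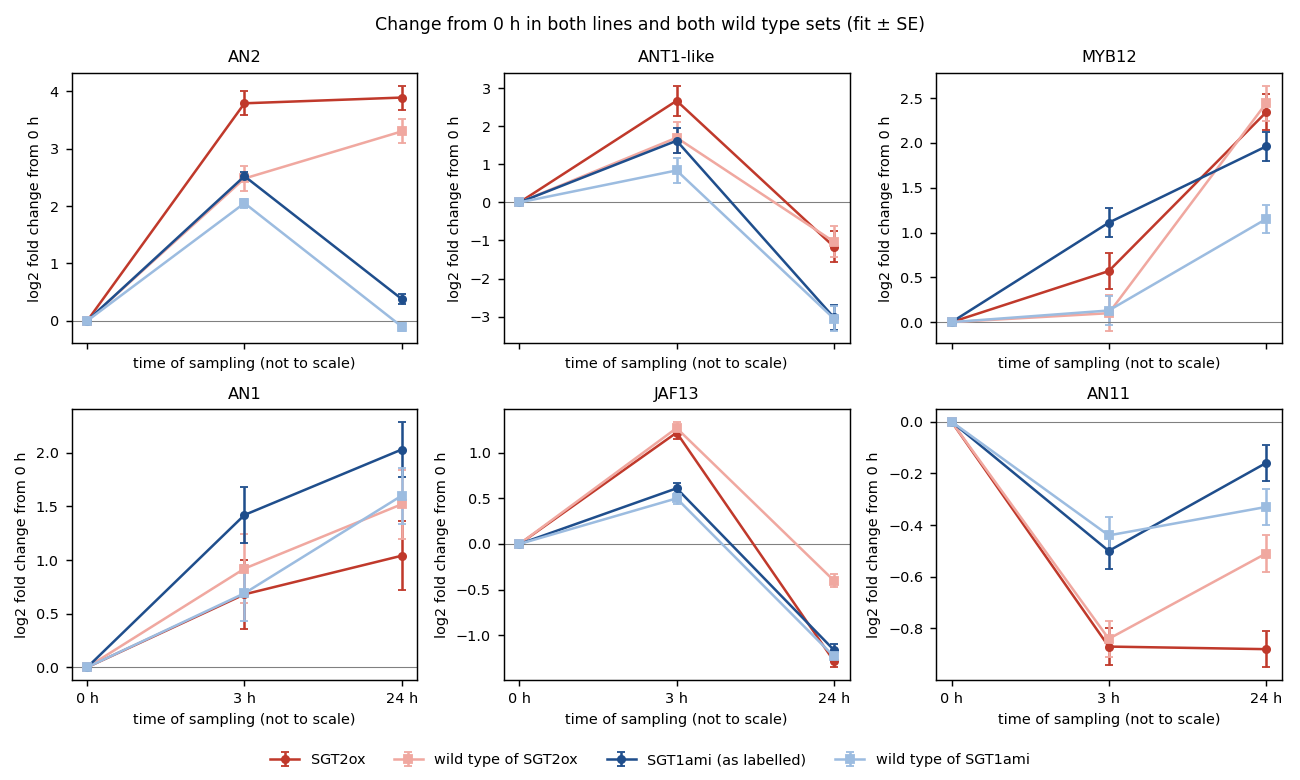
Log2 fold change from 0 h (y axes, which differ between panels) at 3 h and 24 h in both lines and both wild type sets, from the limma fit with whiskers of 1 SE. The time axis is not to scale. AN2 ends high in the SGT2ox wild type (3.30) and near its start in the SGT1ami wild type (-0.10), and JAF13 ends lower in SGT2ox (-1.28) than in its wild type (-0.40).

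The calls among the regulators that could be tested were counted beside the share of all genes called. In the SGT2ox wild type at 3 h against 0 h, 4 of 6 were higher and 1 was lower, where 66.3% of all tested genes were called. At 24 h against 0 h 3 were higher and 3 lower, against 79.1% of all genes, and at 24 h against 3 h 3 were higher and 2 lower, against 79.8%. The SGT1ami wild type had 4 higher and 1 lower at 3 h against 62.7% of all genes, 2 higher and 3 lower at 24 h against 82.4%, and 2 higher and 3 lower between 3 h and 24 h against 81.4%. The 3 h count was 3 of 6 with library totals and without replicate 2 of 0 h. SGT2ox had 4 higher and 1 lower at 3 h and 3 of each at 24 h, where 64.8% and 81.1% of all genes were called. SGT1ami had 5 higher and 1 lower at 3 h, and the libraries labelled so at 24 h had 3 of each, where 62.2% and 82.8% were called. With most genes of the leaf changing, these shares lie near those of all genes and say nothing particular about the regulators. The median log2 fold change of the 6 at 3 h was 1.09 in the SGT2ox wild type and 0.60 in that of SGT1ami, beside medians of 0.01 and -0.02 over all genes.

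The next question was whether SGT2ox differed from its wild type. AN2, the activator, was lower in SGT2ox at 0 h and at 24 h and not at 3 h, and the bHLH JAF13 and the WD-repeat AN11 were lower at 24 h. At 0 h AN2 averaged 27.4 ± 12.9 normalised reads in SGT2ox and 66.5 ± 6.82 in its wild type (SD, n = 3 each), 2.58-fold lower in the line (log2 fold change -1.37 ± 0.21, limma, adjusted p = 1.4e-05). The value was -0.94 without SGT2ox replicate 2, which had 16 reads, and was still called. AN2 was the 1 regulator of 6 called at 0 h, where 25.5% of all genes were called. For the other 5 at 0 h the 95% interval of the log2 fold change held 0, and it was widest for ANT1-like (-1.52 to 0.13) and AN1 (-0.61 to 0.73).

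At 3 h none of the 6 was called by limma, edgeR or DESeq2 or had an unadjusted p below 0.05, where 17.4% of all genes were called by limma. The log2 fold change of AN2 was -0.05 with a 95% interval of -0.48 to 0.38. The largest was that of MYB12, at 0.38 with an interval of -0.03 to 0.80. At 24 h AN2 averaged 385 ± 13.5 in SGT2ox and 662 ± 39.5 in its wild type, JAF13 287 ± 21.4 and 488 ± 30.1, and AN11 593 ± 35.2 and 783 ± 38.5 normalised reads (SD, n = 3 each). The log2 fold changes were -0.78 ± 0.21 for AN2, -0.76 ± 0.07 for JAF13 and -0.40 ± 0.07 for AN11 (limma, adjusted p = 0.0051, 7.8e-10 and 5.3e-05). These 3 of 6 were lower and none higher, where 32.1% of all genes were called. ANT1-like stood at -0.82 ± 0.40 (limma, adjusted p = 0.12), and passed without wild type replicate 1 of 24 h (-1.15, adjusted p = 0.042). MYB12 had -0.17 with an interval of -0.59 to 0.24, and AN1 had -0.42 with an interval of -1.08 to 0.25.

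The change with time itself differed between SGT2ox and its wild type for 3 regulators. From 0 h to 3 h AN2 rose by 1.31 ± 0.29 more in SGT2ox (log2, limma, adjusted p = 0.002), while the 3 h levels of line and wild type overlapped. It was the 1 call of 6, where 18.1% of all genes were called, and the value ran from 0.89 to 1.63 when single libraries were left out. From 0 h to 24 h JAF13 changed by -0.88 ± 0.09 and AN11 by -0.37 ± 0.10 relative to the wild type (limma, adjusted p = 5.8e-08 and 0.0065), 2 of 6 where 23.3% of all genes were called. AN2 had 0.59 ± 0.29 over that time (limma, adjusted p = 0.16) and was called without SGT2ox replicate 3 of 0 h (0.90, adjusted p = 0.011).

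**Figure D4:**
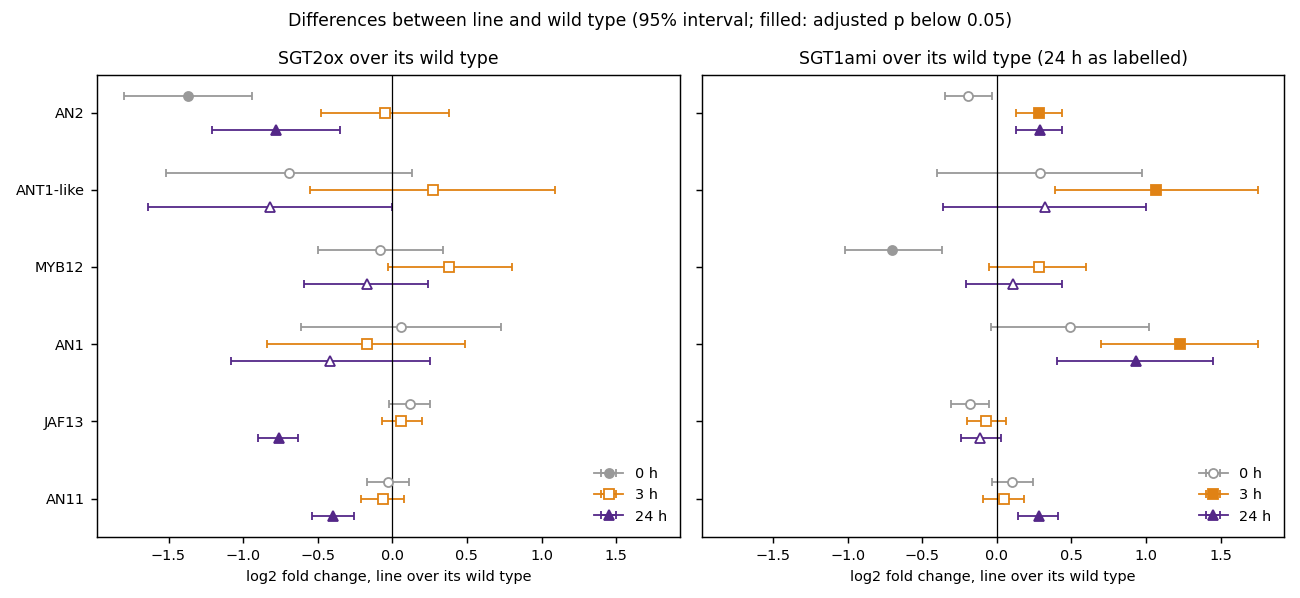
Log2 fold change (x axes) of each line over its wild type at 0, 3 and 24 h, with 95% intervals from the limma fit. Filled marks have an adjusted p below 0.05, and the 24 h values on the right are from the libraries labelled SGT1ami. AN2 lies at -1.37 (0 h) and -0.78 (24 h) in SGT2ox, and AN1 lies at 1.23 (3 h) and 0.93 (24 h) in SGT1ami.

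Of the 6 regulators that passed the filter, each one called in SGT1ami after 0 h was higher than in its wild type. The activators AN2 and ANT1-like and the bHLH AN1 were higher in SGT1ami than in its wild type at 3 h, and MYB12 was lower at 0 h. At 3 h AN1 averaged 70.6 ± 6.95 normalised reads in SGT1ami and 29.6 ± 3.00 in its wild type (SD, n = 3 each), 2.34-fold higher (log2 fold change 1.23 ± 0.26, limma, adjusted p = 5.6e-04). ANT1-like averaged 167 ± 17.4 and 79.1 ± 7.50, 2.09-fold higher (1.07 ± 0.33, limma, adjusted p = 0.016), a call lost without SGT1ami replicate 1 (adjusted p = 0.052), SGT1ami replicate 2 (0.059) or wild type replicate 2 (0.06) of 3 h. AN2 averaged 1454 ± 30.9 and 1196 ± 33.1, 1.22-fold higher (0.28 ± 0.08, limma, adjusted p = 0.0056), a call lost when all 36 libraries shared the estimate of the spread (adjusted p = 0.24). These 3 of 6 were higher and none lower, where 28.1% of all genes were called. MYB12 had 0.28 with a 95% interval of -0.05 to 0.60, and was called without wild type replicate 2 of 3 h (0.47, adjusted p = 0.03). JAF13 and AN11 differed by -0.07 and 0.05, with intervals of -0.20 to 0.06 and -0.09 to 0.18.

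At 0 h MYB12 averaged 54.5 ± 5.47 in SGT1ami and 89.2 ± 11.5 in its wild type, 1.62-fold lower (log2 fold change -0.70 ± 0.16, limma, adjusted p = 0.0018), and it was the 1 regulator of 6 called, where 19.1% of all genes were called. JAF13 lay close to the threshold at -0.18 ± 0.06 (limma, adjusted p = 0.051). It passed with edgeR (adjusted p = 0.014), with DESeq2 (0.026), with TMM scaling (0.034) and in 4 further settings, and when any of 5 single libraries was left out, so the count at 0 h was 2 under each of those settings but one. AN2 stood at -0.19 ± 0.08 (limma, adjusted p = 0.083), and both were called when the 3 libraries labelled SGT1ami at 24 h were left out of the fit (AN2 0.049, JAF13 0.035), which makes 3.

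In the libraries labelled SGT1ami at 24 h AN1 averaged 109 ± 20.9 normalised reads against 58.4 ± 17.2 in the wild type, AN2 329 ± 34.0 against 270 ± 23.5, and AN11 1052 ± 61.6 against 869 ± 68.1 (SD, n = 3 each). The log2 fold changes were 0.93 ± 0.26, 0.29 ± 0.08 and 0.28 ± 0.07 (limma, adjusted p = 0.0097, 0.0069 and 0.0024), 3 of 6 higher and none lower, where 22.1% of all genes were called. Without the labelled replicate 1 only AN11 was still called (AN1 0.80, adjusted p = 0.054, and AN2 0.20, adjusted p = 0.069). AN1 was also lost without wild type replicate 3 (0.66, adjusted p = 0.086), and AN2 without wild type replicate 2 (0.051), with only the groups compared in the fit (0.099) and with all 36 libraries in one fit (0.26). The label of these 3 libraries is in doubt because of the level of the SGT1 identifier, and its part in these differences was not tested.

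The change from 0 h differed between SGT1ami and its wild type for AN2 and MYB12 at both later times. At 3 h the differences of the changes were 0.47 ± 0.11 for AN2 and 0.97 ± 0.22 for MYB12 (log2, limma, adjusted p = 0.0017 and 0.002), 2 of 6 where 20.3% of all genes were called. In the libraries labelled so at 24 h they were 0.48 ± 0.11 and 0.81 ± 0.22 (limma, adjusted p = 0.0015 and 0.0085), 2 of 6 where 23.5% were called. MYB12 was lower in SGT1ami at 0 h (-0.70), and its level was not called different at 3 h (0.28) or in those 24 h libraries (0.11). Both AN2 calls were lost when all 36 libraries were fitted together (adjusted p = 0.18 and 0.16). For AN1 the difference at 3 h was 0.73 ± 0.36 (limma, adjusted p = 0.17), so its higher level in SGT1ami at 3 h was not shown to be a larger rise. For ANT1-like it was 0.78 ± 0.47 (limma, adjusted p = 0.28), and it was called by edgeR (adjusted p = 0.03), by DESeq2 (0.038) and with only the groups compared in the fit (0.03). The effects of both lines were not tested against each other, since each line has its own wild type and experiment.

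Both sets are labelled as wild type, each for its own line, but they started from different levels. At 0 h AN2 averaged 66.5 normalised reads in the SGT2ox wild type and 288 in that of SGT1ami, ANT1-like 16.5 and 44.2, JAF13 642 and 860, and MYB12 38.6 and 89.2. The log2 fold changes in a fit of all 36 libraries were -2.11 ± 0.17, -1.39 ± 0.37, -0.42 ± 0.06 and -1.18 ± 0.18 (limma, adjusted p = 1.7e-14, 0.0012, 2.5e-07 and 2.5e-07). These 4 of 6 were lower in the SGT2ox wild type and none was higher, where 66.4% of all genes were called, and AN11 did not differ beyond its error (0.03, interval -0.11 to 0.16). AN1 had -0.59 ± 0.28 (limma, adjusted p = 0.066) and was called without replicate 2 of the SGT2ox wild type at 0 h (-0.81, adjusted p = 0.022) or replicate 2 of that of SGT1ami (-0.82, adjusted p = 0.02).

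The time courses of the wild types parted as well. The change from 0 h to 24 h in the SGT2ox wild type minus that in the SGT1ami wild type was 3.40 ± 0.24 for AN2 and 2.02 ± 0.53 for ANT1-like (log2, limma, adjusted p = 5.3e-16 and 0.0012). It was 1.28 ± 0.25 for MYB12 and 0.84 ± 0.09 for JAF13 (limma, adjusted p = 3.8e-05 and 1.7e-10). ANT1-like and JAF13 fell in both wild types, and fell less in that of SGT2ox (-1.03 against -3.05, and -0.40 against -1.23). The ANT1-like difference rests on 4 to 10 and 2 to 5 reads in the 24 h libraries. The 4 called differences of 6 were all positive, where 53% of all genes were called. At 3 h the difference was 0.77 ± 0.09 for JAF13 and -0.40 ± 0.10 for AN11 (limma, adjusted p = 1.2e-09 and 5.8e-04), 2 of 6 where 52% of all genes were called. JAF13 thus rose more, and AN11 fell more, in the SGT2ox wild type. With library totals the JAF13 value was 0.51 and the AN11 value -0.65. By edgeR and by DESeq2 4 of 6 were called at 3 h, with AN2 (adjusted p = 0.02 and 0.0038) and ANT1-like (0.036 and 0.024) added. AN2 was also called without SGT2ox replicate 2 of 0 h (0.43, adjusted p = 0.0068).

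The experiments were run separately, so the wild type set and the experiment cannot be told apart. The wild type sets also differed at 0 h in 3 identifiers noted from memory as CBF genes, regulators of the cold response. Each of the 3 was called higher in the SGT2ox wild type, with a median log2 fold change of 7.32 where the median of all genes was -0.02 and 31.6% of all genes were called higher. From 0 h to 3 h they had a median change of 0.61 in the SGT2ox wild type, with 1 of 3 called higher where 35% of all genes were, and of 5.08 in that of SGT1ami, with 3 of 3 called higher where 30.9% were. The part of this in the levels of the regulators was not tested.

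Over the 12 group means the regulators did not move as a block. The closest pair was ANT1-like and JAF13, with Pearson's r of 0.90 between their means of log2(value + 1), and both had their highest means at 3 h. JAF13 was rank 331 among 22944 genes by likeness to ANT1-like, and ANT1-like was rank 739 by likeness to JAF13, so many genes followed this 3 h peak as closely. AN1 and MYB12, both highest at 24 h, had r of 0.76. AN2 had r of 0.60 with AN1, 0.55 with MYB12, 0.42 with ANT1-like and 0.21 with JAF13. AN11 had negative r with each of the others, from -0.47 with AN2 to -0.06 with AN1. The groups share genotype, time and experiment, so these values are descriptions.

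**Figure D5:**
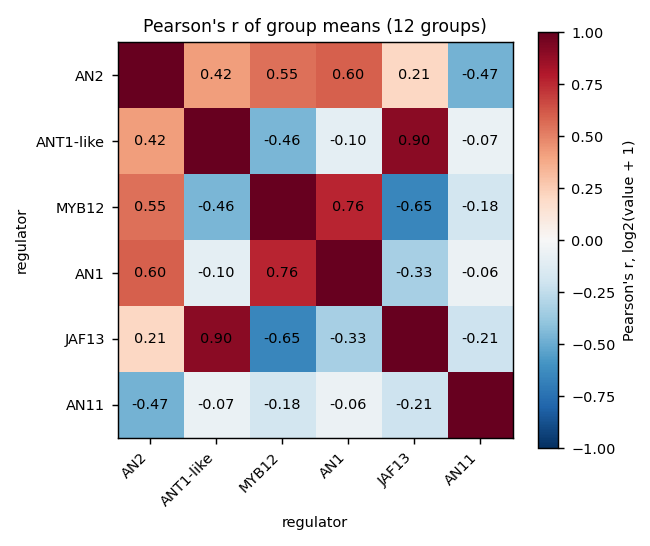
Pearson's r between the group means of log2(value + 1) over 12 groups, for each pair of the 6 regulators that passed the filter, with colour from -1 (blue) to 1 (red). ANT1-like and JAF13 have 0.90, AN1 and MYB12 have 0.76, and JAF13 and MYB12 have -0.65.

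Among genes averaging 50 normalised reads or more, the identifier with the course most like AN2 was Solyc03g006500, with r of 0.957. It was Solyc06g065340.1 for ANT1-like (0.98), Solyc09g075230.1 for AN1 (0.915), Solyc09g014400 for JAF13 (0.991), Solyc08g067360 for MYB12 (0.978) and Solyc11g066000.1 for AN11 (0.95). The number of genes with r of at least 0.9 was 36 for AN2, 15 for AN1 and 41 for AN11, against 325 for ANT1-like, 734 for JAF13 and 797 for MYB12. At that cut AN2, AN1 and AN11 thus had fewer genes like them than the other 3 regulators had. With r above 0.5 this held for AN2 (9.4% of all genes) and AN11 (11.8%). It did not hold for AN1 (27.2%), beside 26.3% for ANT1-like, 29.5% for JAF13 and 31.9% for MYB12. The part of the few reads of AN1 and of the narrow range of AN11 in these counts was not tested.

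A list of 15 identifiers noted from memory as enzymes and transport proteins of flavonoid and anthocyanin synthesis was set beside the regulators, and all 15 could be tested. No table used here pairs these identifiers with names. At 3 h against 0 h 15 of 15 were higher in the SGT2ox wild type (median log2 fold change 1.22), where 35% of all genes were called higher, and 11 in that of SGT1ami (0.97), where 30.9% were. With library totals the counts were 11 and 9. At 24 h against 0 h 13 were higher in the SGT2ox wild type (1.13), where 39.5% of all genes were called higher. In the SGT1ami wild type 7 were higher and 6 lower (0.18), where 42.6% and 39.8% of all genes were called in those directions, and the split was 4 higher and 10 lower with library totals. AN2 was 3.30 above its 0 h level in the first of these wild types and -0.10 from it in the second (log2).

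Between line and wild type the same 15 identifiers were all higher in SGT1ami at 3 h (median log2 fold change 0.72) and in the libraries labelled SGT1ami at 24 h (0.49), where 13.8% and 6.91% of all genes were called higher. At 0 h 3 were lower and none higher (median -0.12), where 8.53% of all genes were called lower. The counts were the same with library totals. In SGT2ox the list was divided. At 0 h 6 were higher and 6 lower (median -0.03), where 14% and 11.5% of all genes were called in those directions. At 3 h 7 were higher and 2 lower (-0.08), beside 7.25% and 10.1%, and at 24 h 3 were higher and 2 lower (-0.10), beside 15.1% and 17%. Over the 12 groups the median r of the list was 0.73 with AN2, with 14 of 15 above 0.5 where 9.4% of all genes were. It was 0.59 with AN1, 0.44 with ANT1-like, 0.37 with MYB12, 0.19 with JAF13 and -0.38 with AN11. Of the 15, 8 were above 0.5 with AN1 (27.2% of all genes), 6 with ANT1-like (26.3%) and 5 with MYB12 (31.9%). With JAF13 there were 3 (29.5%) and with AN11 0 (11.8%).

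A list of 5 identifiers noted from memory as other regulators linked to anthocyanin was mostly higher at 24 h than at 0 h, and 4 of 5 passed the filter in the SGT2ox experiment. At 24 h against 0 h 3 of 4 were higher and 1 was lower in SGT2ox (median log2 fold change 0.98), where 40.3% and 40.8% of all genes were called in those directions, and the counts were the same in its wild type (0.84), beside 39.5% and 39.6%. Over that time 5 of 5 were higher in the libraries labelled SGT1ami (1.4) and in their wild type (1.18), where 42.7% and 42.6% of all genes were called higher, and 3 of 5 in each with library totals. At 3 h 2 were higher and 2 lower in each wild type, where 35% and 31.3% of all genes were called in those directions in the SGT2ox wild type and 30.9% and 31.8% in that of SGT1ami. With library totals no member was higher in the first and 1 in the second. Over the 12 groups 4 of 5 had r above 0.5 with MYB12, where 31.9% of all genes had, and none had it with AN2. In SGT1ami at 0 h 1 of 5 was higher than in the wild type, where 10.6% of all genes were called higher, and at 3 h 2 were lower (median -0.25), where 14.3% were called lower. In the libraries labelled so at 24 h 1 was higher and 1 lower, beside 6.91% and 15.2%. In SGT2ox 1 of 4 was higher than in the wild type at 0 h, where 14% of all genes were called higher, none was called at 3 h, where 17.4% were called, and 1 was higher and 1 lower at 24 h, beside 15.1% and 17%.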

How the data were processed

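Poly(A) RNA libraries from tomato leaves were sequenced by DNBSEQ, per the labels' protocols. Trimmomatic, STAR, featureCounts and DESeq2 are the tools in the submitters' processing notes. No source used here gives their versions, the genome build, the annotation or the strand setting. The authors deposited a signal per gene, the gene count divided by 1 size factor per library, which was read from the values: 100% of them were whole multiples of 1 read within 0.01, at size factors of 0.7786 to 1.3114. Of values of 2 to 11 reads, 76.4% to 81.2% were even in a library, so most fragments were counted by both of their mates and intervals on reads would cover counting error only. Replicate libraries differed by more than sampling noise. No sequences are shown, as none were in the sources used here, and of the table's identifiers 0 were found in the reference annotation of 41476 genes.

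Groups were taken from sample titles. Values were tested as log2(value + 1) with limma-trend (limma 3.58.1, R 4.3.3). Each experiment was fitted alone (18 libraries, 6 groups, 12 residual degrees of freedom) over genes with at least 10 in at least 3 libraries (22399 and 22286 genes). Wild type sets were compared in a fit of all 36 (22945 genes). P-values were adjusted by Benjamini-Hochberg within each of 23 comparisons and called at 0.05. The test was also run on simulated data with independent counts and few changed genes. That setting is unlike these data, and no result here rests on it. Alternatives were pseudocounts of 0.5 and 5, no filter, a filter at 50, TMM, library totals, other sets of libraries in the fit, a replicate block, edgeR 4.0.16, DESeq2 1.42.0, and leaving out single libraries or the 3 labelled SGT1ami at 24 h. Every regulator was named, and for each the identifier most like it over group means. The regulators and lists were chosen with earlier results of these data known, and list members were noted from memory.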

Additional observations from a re-analysis of the deposited data

Results flagged for a closer look

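The change from 0 h differed between line and wild type, by a test of the difference itself (limma, adjusted p given), in 7 results. In the SGT2ox experiment these were AN2 at 3 h (1.31, adjusted p = 0.002), and JAF13 (-0.88, adjusted p = 5.8e-08) and AN11 (-0.37, adjusted p = 0.0065) at 24 h. In the SGT1ami experiment they were AN2 (0.47, adjusted p = 0.0017) and MYB12 (0.97, adjusted p = 0.002) at 3 h, and AN2 (0.48, adjusted p = 0.0015) and MYB12 (0.81, adjusted p = 0.0085) in the libraries labelled SGT1ami at 24 h. All are log2 differences, line minus wild type. For AN2 in SGT2ox at 3 h, and for MYB12 in SGT1ami at both later times, the later levels were not called different. Each was called lower in its line at 0 h.

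The same test between the wild types, SGT2ox wild type minus SGT1ami wild type, gave 6 results (log2, limma, adjusted p given). At 3 h they were JAF13 (0.77, adjusted p = 1.2e-09) and AN11 (-0.40, adjusted p = 5.8e-04). At 24 h they were AN2 (3.40, adjusted p = 5.3e-16), ANT1-like (2.02, adjusted p = 0.0012), JAF13 (0.84, adjusted p = 1.7e-10) and MYB12 (1.28, adjusted p = 3.8e-05). Groups of 3 libraries are too small to single out one library as far from the others.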

How the results depend on the processing

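Under the 12 alternatives other than leaving out 1 library, 1502 recomputed log2 fold changes of regulators kept their direction and side of the threshold, 22 gained a call, 12 lost one and 14 turned sign. Without a single library, 2737 kept both, 15 gained a call, 22 lost one and 34 turned sign. The number of regulators called at 0 h in SGT1ami was 1, and became 2 with a filter at 50, TMM scaling, only the groups compared, all 36 libraries in one fit, edgeR or DESeq2, 3 without the 3 libraries labelled SGT1ami at 24 h, and 1 to 2 without single libraries. The 5 called in the SGT1ami wild type at 3 h became 3 with library totals and 3 to 5 without single libraries, and the 3 called at 24 h in the libraries labelled SGT1ami became 1 to 3. Both counts of 2 for differences of changes in the SGT1ami experiment became 1 with all 36 libraries, and the 2 between wild types at 3 h became 4 with edgeR and with DESeq2.

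With library totals, which shift the median gene, the log2 fold change turned sign for MYB12 at 3 h in the SGT2ox wild type (-0.37) and the SGT1ami wild type (-0.09), for AN11 between 3 h and 24 h in the SGT1ami wild type (-0.29), and for AN2 in the libraries labelled SGT1ami at 24 h against 0 h (-0.16). It also did so in SGT2ox against wild type for AN1 at 0 h (-0.02) and AN2 at 3 h (0.00), in the difference of changes of SGT2ox at 3 h for JAF13 (0.08) and AN11 (0.11), and between wild types for AN1 at 3 h (-0.01) and 24 h (0.28) and AN11 at 24 h (0.18). With a pseudocount of 5 the difference of changes of ANT1-like at 24 h was 0.02 in SGT2ox and -0.04 in SGT1ami, and with edgeR that of AN1 between wild types at 24 h was 0.01.

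Values that turned sign without a single library were all uncalled, and ran as follows. In the wild types at 3 h, MYB12 ran between -0.04 and 0.29 in that of SGT2ox and between -0.06 and 0.25 in that of SGT1ami. In SGT2ox against wild type, AN1 ran between -0.10 and 0.28 and AN11 between -0.11 and 0.03 at 0 h, and AN2 between -0.11 and 0.00 and ANT1-like between 0.00 and 0.49 at 3 h. In its differences of changes, AN11 at 3 h ran between -0.09 and 0.04, ANT1-like at 24 h between -0.46 and 0.17, and MYB12 at 24 h between -0.17 and 0.07. In SGT1ami, ANT1-like at 24 h against wild type ran between -0.02 and 0.81, and the differences of changes between -0.10 and 0.01 for AN11 at 3 h and between -0.30 and 0.52 for ANT1-like at 24 h. Between wild types, AN11 at 0 h ran between -0.04 and 0.06, and the differences of changes between -0.17 and 0.16 for MYB12 at 3 h and between -0.35 and 0.19 for AN1 at 24 h.

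Depth limits ANT1, AN2-like, MYB-ATV and ANT1-like at 24 h, with few reads each. Temperature is not among the labels of a library, the experiments cannot be told apart from the wild type sets, and size factors hold the typical gene constant. Apart from the stated constructions, the cause of these dependences was not tested. The replicate numbers did not pair the samples: same-numbered libraries had correlations of -0.05 to 0.02 over 48 pairs, 0 of them over 0.1, and 12 of 48 correlated best with their own number. With the replicate block the numbers of regulators called were the same in each of the 23 comparisons, for example 1, 0 and 3 for SGT2ox and 1, 3 and 3 for SGT1ami against wild type at 0, 3 and 24 h, and no regulator's call changed.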

Other observations

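Solyc10g086280, an identifier numbered between ANT1-like and AN2-like and chosen after its values were seen, was higher at 24 h than at 0 h in both wild types. In the SGT2ox wild type it averaged 10760 ± 226 normalised reads at 24 h and 2417 ± 227 at 0 h, and in the SGT1ami wild type 17470 ± 938 and 449 ± 12.3 (SD, n = 3 each). The log2 fold changes at 24 h against 0 h were 2.16 and 5.28 (limma, adjusted p = 3.7e-20 and 6.9e-37), where 39.5% and 42.6% of all genes were called higher. With no filter on low values AN2-like was also called higher over the same time in both (limma, adjusted p = 3.4e-04 and 7.4e-05). That call rests on at most 6 reads a library, no more than a count of 0 allows. The gene is given by identifier, since no table used here names it.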
